A study of Rattus norvegicus with 2 samples.

Results

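Endothelial nuclei were 229 of the 12512 nucleus barcodes recovered from the orbitofrontal cortex of rats, 112 in the library of animals given methamphetamine (METH) and 117 in the library of animals given saline. METH is a psychostimulant that releases monoamines. The METH animals were male Sprague-Dawley rats of 8 weeks that received 1 mg/kg METH by intraperitoneal injection for 7 days, and the saline animals were male rats of the same strain and age that received saline for 7 days. Each group had 4 animals and 1 library; the sources used here do not say how the animals were combined. The groups therefore have no replicate check, no p-value is given, and every interval covers counting error only.

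A barcode counted as an endothelial nucleus where it had at least 500 detected genes, fewer than 5000 unique molecular identifiers (UMIs, each 1 captured RNA molecule) and a UMI of at least 2 endothelial marker genes. It also had to lack UMIs of the mural genes Pdgfrb, Rgs5 and Abcc9, the neuronal genes Gad1, Gad2 and Slc17a7, the oligodendrocyte gene Mog and the astrocyte gene Aqp4. The markers were Flt1, Cldn5, Mecom, Adgrl4, Tek, Egfl7 and Vwf; an eighth, Abcb1a, has no row under that symbol in the gene tables used here. The markers and the genes required to be at 0 chose the nuclei, so their levels are a description of the choice. Of the 5490 METH and 6917 saline barcodes with enough genes, 2.04% (95% exact interval 1.68 to 2.45) of the METH and 1.69% (1.40 to 2.02) of the saline barcodes were endothelial. The log2 ratio of these shares, METH over saline, was 0.27 with a counting interval of -0.12 to 0.66, which includes 0. The ratio depended on the barcodes counted. Among those that also had fewer than 5000 UMIs, 2089 in METH and 3437 in saline, it was 0.66 (0.27 to 1.04), an interval above 0.

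Endothelial cells line the vessels of the brain. In brain capillaries they are sealed by tight junctions, carry few vesicles, and move glucose, amino acids and lipids through dedicated transporters, while efflux pumps return many drugs to the blood. Along the vessel the cells change from arterial through capillary to venous types. Von Willebrand factor, the product of Vwf, is stored in Weibel-Palade bodies and binds platelets at sites of injury; in brain its RNA is known to be more abundant in large vessels, veins in particular, than in capillaries.

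The endothelial nuclei were shallow compared with the libraries they came from. Median UMIs per endothelial nucleus were 1187 in METH (677 to 4198) and 1067 in saline (630 to 4526), against 6401 and 4992 over all METH and saline barcodes. The limit of 5000 UMIs kept out 2 METH barcodes and 1 saline barcode that met every other condition. The summed endothelial UMIs were 145943 in METH and 140060 in saline, and all levels below are CPM, the counts scaled to these sums. A count of 0 allows up to 20.6 CPM in METH and 21.4 CPM in saline, the level of 3 UMIs. The largest mitochondrial share of any nucleus was 2.02% in METH and 4.11% in saline. The libraries shared 9 barcodes, of which 1 was an endothelial nucleus in either library.

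The nuclei carried several endothelial markers each, with a median of 4 in METH and 3 in saline. Flt1, a receptor of vascular endothelial growth factor (VEGF), had 565 UMIs in 100 METH nuclei and 517 UMIs in 107 saline nuclei. Adgrl4, an adhesion receptor of endothelium, had 290 UMIs in 88 METH nuclei and 175 UMIs in 79 saline nuclei. Cldn5, the main claudin of brain endothelial tight junctions, had 133 UMIs in 70 METH nuclei and 101 UMIs in 67 saline nuclei. These 3 genes were found in most nuclei of both libraries. Tek, the angiopoietin receptor, had 128 UMIs in 59 METH nuclei and 81 UMIs in 53 saline nuclei, and Egfl7, a secreted matrix protein of endothelium, had 90 UMIs in 54 METH nuclei and 57 UMIs in 43 saline nuclei. Mecom, a zinc finger transcription factor, was the sparsest, with 34 UMIs in 23 METH nuclei and 33 UMIs in 25 saline nuclei. Only Vwf differed between the libraries past the rule given below for single genes, with 140 UMIs in 66 METH nuclei and 64 UMIs in 40 saline nuclei.

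The promoters of 3 of these markers are shown because endothelial genes are known to be driven in large part by factors of the ETS family, such as Erg and Fli1, which bind a GGAA core. Each sequence runs from 250 bases before to 50 bases after the RefSeq gene start on the GRCr8 build, 5′ to 3′ on the gene's strand: Flt1 on chr12:12333180-12333479 (plus strand), Cldn5 on chr11:95718549-95718848 (minus strand) and Adgrl4 on chr2:243014689-243014988 (plus strand). Capitals mark the letters AGGAAG, searched on both strands.
Flt1: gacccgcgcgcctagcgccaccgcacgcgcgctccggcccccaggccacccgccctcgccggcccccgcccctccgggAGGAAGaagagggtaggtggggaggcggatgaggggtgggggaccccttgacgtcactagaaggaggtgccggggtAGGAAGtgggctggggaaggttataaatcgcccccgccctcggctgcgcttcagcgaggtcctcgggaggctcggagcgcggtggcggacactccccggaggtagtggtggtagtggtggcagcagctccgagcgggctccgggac
Cldn5: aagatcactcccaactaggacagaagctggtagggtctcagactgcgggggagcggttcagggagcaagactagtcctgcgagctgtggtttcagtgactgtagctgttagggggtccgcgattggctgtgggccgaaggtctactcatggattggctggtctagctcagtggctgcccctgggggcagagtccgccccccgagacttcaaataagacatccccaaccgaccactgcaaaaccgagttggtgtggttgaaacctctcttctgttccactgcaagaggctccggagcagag
Adgrl4: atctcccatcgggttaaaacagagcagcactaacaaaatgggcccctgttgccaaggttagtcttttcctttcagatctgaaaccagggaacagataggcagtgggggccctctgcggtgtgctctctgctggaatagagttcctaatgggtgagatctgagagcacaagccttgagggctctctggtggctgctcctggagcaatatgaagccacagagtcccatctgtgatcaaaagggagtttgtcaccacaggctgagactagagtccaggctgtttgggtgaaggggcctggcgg
The Flt1 window held the letters 2 times, and the Cldn5 and Adgrl4 windows did not hold them. AGGAAG is longer than the GGAA core, which the Cldn5 and Adgrl4 windows do hold when both strands are read. Of the 7 windows listed for the 6 marker genes in the promoter table, 2 held AGGAAG (Flt1 and 1 of the 2 of Egfl7), against 34.5% of all 33469 windows of this length. A match is a run of letters and not a binding site.

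Genes that the gate did not use placed the nuclei in the endothelium too. Of a list of 22 endothelial identity genes (21 of them in the files; Ptprb, Erg, Sox17 and others, none of them a gate marker), at least 1 UMI was counted in 111 of 112 METH and 116 of 117 saline nuclei. The list summed to 9119 CPM in the METH and 8394 CPM in the saline nuclei with 3 or more markers. Just inside the threshold, the 10 METH and 18 saline nuclei with exactly 2 markers held 7458 and 5346 CPM. Just outside it, the 27 METH and 39 saline barcodes that met every other condition but had 1 marker held 862 and 456 CPM, and 44.4% and 41.0% of them had a UMI of the list. The step in the list thus lay between 1 and 2 markers.

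Mural cells, the pericytes and smooth muscle cells that wrap the same vessels, were taken by a parallel gate (at least 2 of Pdgfrb, Rgs5 and Abcc9, fewer than 2 endothelial markers, and the other conditions alike), which gave 68 METH and 61 saline nuclei. A gene is written as higher or lower where its ratio passed 1.5-fold and the bound of its 95% counting interval nearest to 0 did so as well, among genes with at least 30 UMIs over both sets of nuclei. Of 3438 genes measured, 423 were higher (12.3%) and 270 lower (7.85%) in endothelial than in mural nuclei, and all 7 gate markers in the files were among the higher genes. Since the gates chose the nuclei, these counts describe the gates.
The 10 genes with the highest bound over mural nuclei were Flt1, Cyyr1, Adgrl4, Slco1a4, Prom1, Ptprb, Adgrf5, Tek, Abcc4 and Abcb4. Flt1, Cyyr1, Adgrl4, Prom1 and Tek had no UMI in mural nuclei of either library. Slco1a4, an organic anion transporter of the blood-brain barrier, stood at 1829 CPM in METH and 2063 CPM in saline endothelial nuclei, against 24.4 and 0 CPM in METH and saline mural nuclei. Abcb4 is a close paralogue of the drug pump gene Abcb1a, and the counting could have split reads between them. In the other direction Atp13a5, a pericyte gene, had 0 UMIs in endothelial nuclei of both libraries, against 3447 CPM in METH and 3263 CPM in saline mural nuclei. Slc6a20, a transporter of proline-like compounds, stood at 6.85 CPM in METH and 7.14 CPM in saline endothelial nuclei, against 2322 CPM and 2082 CPM in METH and saline mural nuclei.

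**Figure D1:**
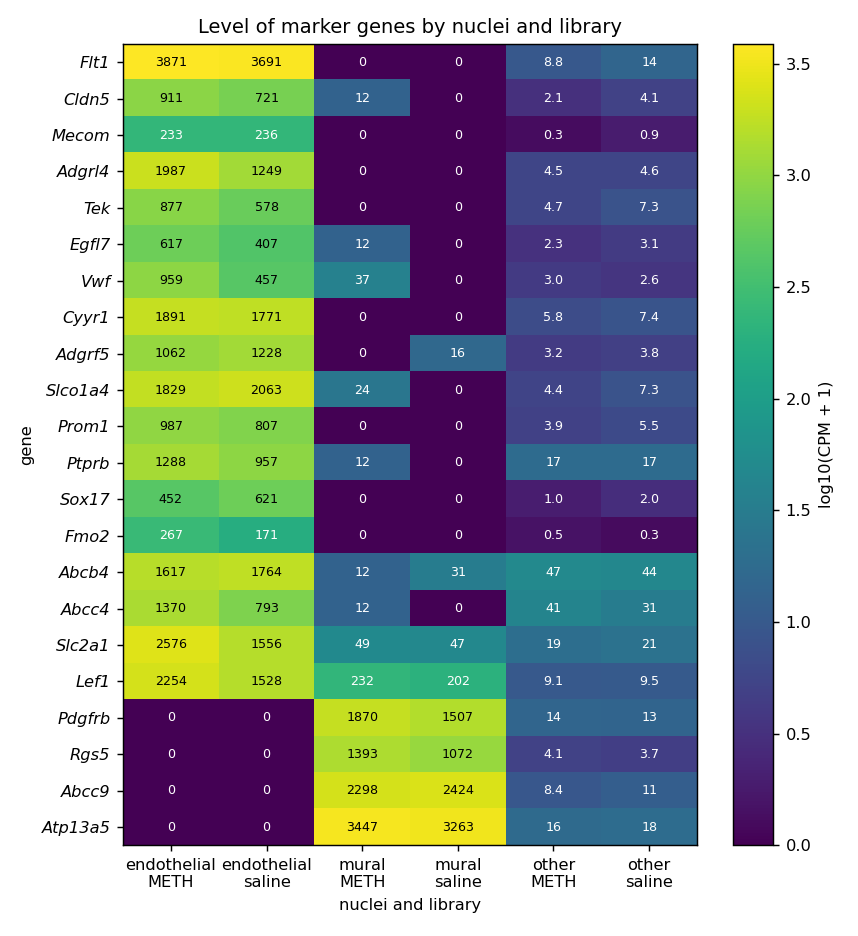
Level of 22 genes in endothelial nuclei, mural nuclei and all other barcodes (mural nuclei included) of each library; rows are genes, columns are nuclei and library, and the colour and printed number give the level (colour as log10(CPM + 1), number in CPM). The gate markers and unused endothelial genes fill the endothelial columns (Flt1 3871 and 3691 CPM in METH and saline), and Pdgfrb, Rgs5 and Abcc9 are at 0 there by the gate's rule.

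Against the 12178 other barcodes, which include the 129 mural nuclei, a gene was compared where the endothelial nuclei alone held at least 30 UMIs. Of 2227 such genes, 565 were higher (25.4%) and 179 lower (8.04%) in endothelial nuclei. That minimum left out genes scarce in endothelial nuclei, so the excess of higher over lower genes cannot be read as a result. The 10 highest by their bound were Fmo2, Adgrf5, Slco1a4, Flt1, Sox17, Akr1c15, Adgrl4, Cyyr1, Ankdd1b and Zfp366. Fmo2, a flavin monooxygenase, stood at 267 CPM in METH and 171 CPM in saline endothelial nuclei, against 0.513 and 0.285 CPM in METH and saline other barcodes. Sox17, a transcription factor of arterial endothelium, stood at 452 CPM in METH and 621 CPM in saline endothelial nuclei, against 0.960 and 1.97 CPM in the METH and saline others.
Enzymes of monoamine handling were part of this profile. Ddc, the decarboxylase that makes dopamine from L-DOPA and forms part of the enzymatic barrier of brain capillaries, had 104 UMIs in endothelial nuclei of METH and 79 UMIs in those of saline and none in mural nuclei; it was chosen after its values were seen. Maoa and Maob, the monoamine oxidases, were the only 2 of 20 monoamine genes with enough UMIs to be compared. Maoa stood at 480 CPM in METH and 593 CPM in saline nuclei, and Maob at 233 CPM in METH and 271 CPM in saline nuclei, both log2 ratios having intervals that include 0. The dopamine receptor genes Drd1, Drd2, Drd3 and Drd5, the dopamine transporter gene Slc6a3 and Th had no UMI in endothelial nuclei of either library, so each is at or under the 3-UMI limit given above.

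Lists of other cell types were summed in the same way. The summed mural list stood at 54.8 CPM in METH and 42.8 CPM in saline endothelial nuclei, against 6980 CPM and 6246 CPM in METH and saline mural nuclei. The fibroblast list stood at 6.85 CPM in METH and 14.3 CPM in saline endothelial nuclei. A list of 5 pan-neuronal genes summed to 966 CPM in METH and 1842 CPM in saline endothelial nuclei, and to 1039 CPM in METH and 1958 CPM in saline mural nuclei, so endothelial and mural nuclei of each library held a like level; the other barcodes held 6664 CPM in METH and 6999 CPM in saline. An astrocyte list, whose Aqp4 is at 0 by the gate, summed to 617 CPM in METH and 228 CPM in saline endothelial nuclei, against 425 CPM and 468 CPM in METH and saline other barcodes. A microglial list summed to 226 CPM in METH and 407 CPM in saline endothelial nuclei, against 102 CPM and 145 CPM in METH and saline other barcodes. Endothelial nuclei thus held more of the astrocyte list than the other barcodes in METH, and more of the microglial list in both libraries. Of these UMIs, 1 METH nucleus held 24 of the 90 of the astrocyte list, and 1 saline nucleus 13 of the 57 of the microglial list. Mural nuclei held more of the astrocyte list, 1797 CPM in METH and 1771 CPM in saline. An oligodendrocyte list summed to 295 CPM in METH and 393 CPM in saline endothelial nuclei, against 626 CPM and 703 CPM in METH and saline other barcodes. By its summed lists, another cell class led in 2 METH and 3 saline nuclei, and a doublet caller marked 2 METH and 2 saline nuclei. All of these were kept. Among the genes named below, leaving out the nuclei led by another class ended the calls of Vwf, Cck, Ttll5, Cntn5 and Il1rapl1 between METH and saline and of Nr2f2 in the split by Vwf, and leaving out the called doublets ended that of Igsf11; their log2 ratios were then 1.02, -1.81, 1.91, -1.46, -1.01, 1.79 and 1.81 in that order.

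The endothelial nuclei were split by Vwf, the marker that most differed between the libraries. At least 1 Vwf UMI was counted in 66 of 112 METH nuclei (58.9%, 95% exact interval 49.2 to 68.1) and in 40 of 117 saline nuclei (34.2%, 25.7 to 43.5). The log2 ratio of these shares was 0.79 (0.20 to 1.39). Nuclei with 2 or more Vwf UMIs were 32 in METH (28.6%) and 13 in saline (11.1%), and the mean per positive nucleus was 2.12 UMIs in METH and 1.60 UMIs in saline. The highest nucleus had 8 Vwf UMIs in each library. METH nuclei thus held Vwf more often and with more UMIs where it was found.

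Vwf in cells that should lack it was rare, at a greater depth. Among barcodes with a UMI of Slc17a7, a gene of excitatory neurons, a Vwf UMI was found in 1.48% in METH at a median depth of 9894 UMIs and in 1.03% in saline at a median of 6692 UMIs. Among barcodes with a UMI of the oligodendrocyte gene Mog the shares were 2.50% in METH and 2.48% in saline, at medians of 4517 and 4040 UMIs in METH and saline. In mural nuclei, whose gate admits at most 1 endothelial marker, 2.94% of METH nuclei had a Vwf UMI, and 0 of 61 saline nuclei did, which by the limit of 3 counts allows a share of up to 4.92%. The shares in endothelial nuclei of both libraries lay far above these.

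Depth differed between the libraries and moved with Vwf within each. Vwf-positive nuclei had a median of 1214.5 UMIs and Vwf-negative nuclei of 1134 UMIs in METH, and 1158.5 UMIs and 1011 UMIs in saline. Among nuclei under 1000 UMIs, 19 of 37 METH nuclei (51.4%, 34.4 to 68.1) and 14 of 51 saline nuclei (27.5%, 15.9 to 41.7) were Vwf-positive. Among nuclei from 1000 UMIs to under 1500 UMIs the shares were 57.4% of METH (27 of 47, 42.2 to 71.7) and 31.3% of saline nuclei (15 of 48, 18.7 to 46.3). Among deeper nuclei they were 71.4% of METH (20 of 28, 51.3 to 86.8) and 61.1% of saline nuclei (11 of 18, 35.7 to 82.7), with intervals that overlap widely. The METH share was the higher value in each depth class, least so in the deepest. Thinned to 800 UMIs per nucleus, which left out 10 METH and 20 saline nuclei, the shares were 47.0% in METH and 28.1% in saline. Between nuclei matched on total UMIs, 94 in each library, they were 58.5% in METH and 35.1% in saline. With Vwf taken out of the gate they were 58.2% in METH (64 of 110) and 31.9% in saline (36 of 113). With at least 1000 genes required, which left 24 METH and 17 saline nuclei, they were 70.8% in METH and 64.7% in saline, with a log2 ratio of 0.13 (-1.05 to 1.37).

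**Figure D2:**
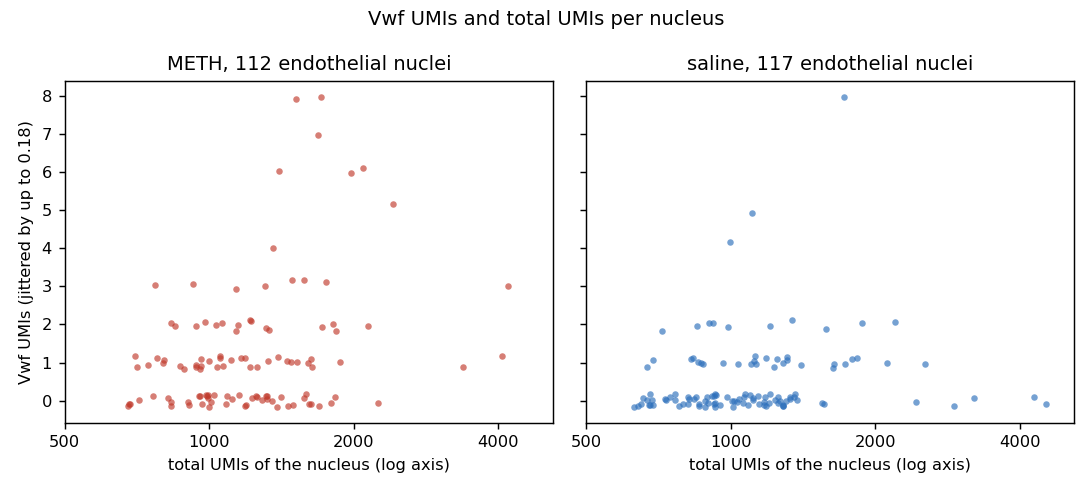
Vwf UMIs (vertical, jittered) against total UMIs (horizontal, log axis) for each endothelial nucleus, METH in the left panel and saline in the right. The METH panel holds 32 nuclei with 2 or more Vwf UMIs and the saline panel 13, and the highest nucleus has 8 in each.

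Genes that accompanied Vwf were sought within each library, and the ratios of the libraries were combined in strata so that a difference between libraries could not enter. A call needed both the common ratio and its nearest bound past 1.5-fold, and the same sign in both libraries. Of 2226 genes measured, 9 were higher (0.404%) and 4 lower (0.18%) in Vwf-positive nuclei, and 48.4% of all ratios were above 0. The groups were cut from 1 measured gene, so these are descriptions of nuclei that carry a Vwf UMI.

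The genes higher in Vwf-positive nuclei included venous endothelial genes. Il1r1, the interleukin-1 receptor, stood at 1236 CPM in Vwf-positive and 458 CPM in Vwf-negative METH nuclei, and at 965 CPM in Vwf-positive and 426 CPM in Vwf-negative saline nuclei. It was found in 31 of 66 Vwf-positive and 12 of 46 Vwf-negative METH nuclei, and in 14 of 40 Vwf-positive and 15 of 77 Vwf-negative saline nuclei; the common log2 ratio was 1.31 (0.86 to 1.76). Nr2f2 encodes COUP-TFII, the transcription factor that specifies venous identity. It had 13 UMIs in Vwf-positive and 4 UMIs in Vwf-negative nuclei of each library, a common log2 ratio of 1.85 (0.62 to 3.23). These were the only 2 of the 11 listed venous genes with enough UMIs to be compared, and both passed the rule. Nr2f2 is not particular to endothelium here: by the same rule it was lower, and Il1r1 higher, in endothelial than in mural nuclei. Nr2f2 rests on few UMIs and missed the rule under 5 of 9 alternatives, with ratios from 1.51 to 3.40 over them.

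Slc7a11, the cystine-glutamate exchanger, had the highest ratio of the called genes. It had 40 UMIs in 11 Vwf-positive and 2 UMIs in 2 Vwf-negative METH nuclei, and 18 UMIs in 6 Vwf-positive and 5 UMIs in 4 Vwf-negative saline nuclei, a common log2 ratio of 3.01 (1.86 to 4.41). Fmo2 had 33 UMIs in 16 Vwf-positive and 6 UMIs in 6 Vwf-negative METH nuclei, and 20 UMIs in 10 Vwf-positive and 4 UMIs in 4 Vwf-negative saline nuclei, a log2 ratio of 2.39 (1.38 to 3.55). Both were found in a minority of Vwf-positive nuclei. Adgrg6, an adhesion receptor, had a log2 ratio of 1.95 (0.96 to 3.08), with UMIs in 11 Vwf-positive and 2 Vwf-negative METH nuclei and in 7 Vwf-positive and 1 Vwf-negative saline nuclei. Slc7a11, Fmo2, Adgrg6 and Il1r1 passed the rule, without its UMI minimum, under every alternative that gave them a finite ratio.

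Ccn2, a matricellular protein induced by YAP and TGF-beta signals, had a common log2 ratio of 1.54 (0.87 to 2.24). Ptgds, prostaglandin D2 synthase, had a ratio of 2.02 (1.19 to 2.95), with 57 UMIs in 10 Vwf-positive and 6 UMIs in 5 Vwf-negative METH nuclei. Ptgds is abundant in meninges and glia too, and the part of RNA from such cells was not tested. Atp6v1h, a subunit of the vacuolar proton pump, had a ratio of 1.86 (0.63 to 3.25) and missed the rule under 4 of 9 alternatives. The ninth gene was Hba-a1, a haemoglobin gene, with 66 UMIs in 4 Vwf-positive and 10 UMIs in 5 Vwf-negative METH nuclei, and 9 UMIs in 5 Vwf-positive and 14 UMIs in 7 Vwf-negative saline nuclei; 1 METH nucleus held 80.3% of its METH UMIs. Counting the 8 genes other than Hba-a1, at least 3 were found together in 18 of 66 Vwf-positive (27.3%) and 5 of 46 Vwf-negative (10.9%) METH nuclei, and in 7 of 40 Vwf-positive (17.5%) and 2 of 77 Vwf-negative (2.60%) saline nuclei. These genes were picked by the same contrast, so the counts only show that a subset of nuclei carried several at once.

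Ifitm10, Cdc42ep3, Stt3b and Nav2 were lower in Vwf-positive nuclei. Ifitm10, an interferon-induced transmembrane family member, had 5 UMIs in Vwf-positive and 20 UMIs in Vwf-negative METH nuclei, and 6 UMIs in Vwf-positive and 19 UMIs in Vwf-negative saline nuclei, a log2 ratio of -1.91 (-3.05 to -0.89). Cdc42ep3, an effector of the GTPase CDC42, had a ratio of -1.94 (-3.32 to -0.73). Stt3b, a catalytic subunit of the oligosaccharyl transferase, had a ratio of -1.84 (-3.12 to -0.69). Nav2, a neuron navigator family gene, had a ratio of -1.38 (-2.16 to -0.65). All 4 rest on few UMIs, and Stt3b had 1 UMI in Vwf-positive saline nuclei.

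No listed capillary gene passed the rule, where 0.404% of all genes were higher and 0.18% lower. At shares this small, 11 genes would commonly hold no call, so the absence of calls says little about capillary genes. Of the 11 capillary genes measured, 5 ratios were above 0, against 48.4% of all ratios. Their median was -0.20, against -0.02 for all genes. Slco1c1, the thyroxine transporter of brain capillaries, stood at 613 CPM in Vwf-positive and 1302 CPM in Vwf-negative METH nuclei, and at 808 CPM in Vwf-positive and 941 CPM in Vwf-negative saline nuclei, a ratio of -0.70 (-1.09 to -0.31). Rgcc, a cell cycle regulator enriched in brain capillaries of mice, had a ratio of -0.95 (-1.56 to -0.36). Cxcl12, a chemokine, had a ratio of -0.64 (-1.16 to -0.13), and Slc7a5, the large amino acid transporter, had a ratio of -0.68 (-1.27 to -0.11). The intervals of these 4 genes lay below 0 but reached within 1.5-fold. Slco1a4 had a ratio of 0.13 (-0.12 to 0.39), Slc2a1, the glucose transporter, of 0.29 (0.04 to 0.54), and Cldn5 of -0.48 (-0.88 to -0.08). Cldn5 is a gate marker, and a Vwf-negative nucleus needed 2 of the other markers where a Vwf-positive one needed 1, so the gate bears on its ratio. Barrier transporters had 12 of 18 ratios above 0 with a median of 0.12, and junction genes, Cldn5 among them, 3 of 12 with a median of -0.16, none past the rule.

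**Figure D3:**
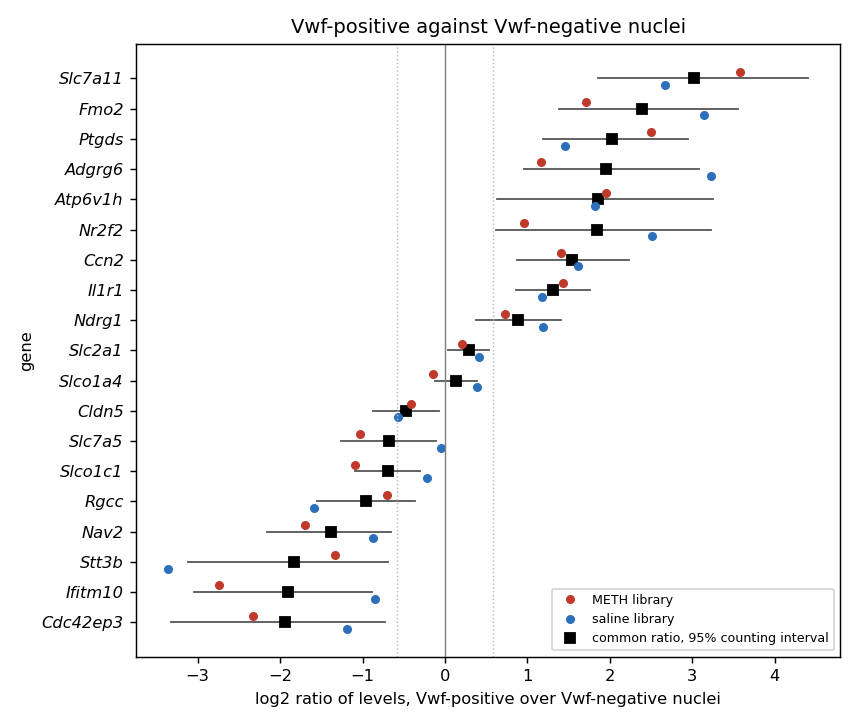
Log2 ratio of levels, Vwf-positive over Vwf-negative nuclei (horizontal), for the named genes past the 1.5-fold rule and 7 others (vertical); squares and bars are the common ratio with its 95% counting interval, red and blue points are the ratios within the METH and saline libraries, and dotted lines mark 1.5-fold. Slc7a11 at 3.01 and Cdc42ep3 at -1.94 end the range.

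Vessel zone was also read from whole lists. At least 1 UMI of the venous list was counted in 51 of 112 METH and 43 of 117 saline nuclei, and at least 1 of the arterial list in 65 METH and 80 saline nuclei. The capillary list was found in 105 nuclei of each library, with a median of 7 UMIs per nucleus in both. The arterial list summed to 939 CPM in METH and 1299 CPM in saline nuclei, a log2 ratio of -0.47 (-0.80 to -0.14), and the venous list to 1247 CPM in METH and 957 CPM in saline nuclei, a ratio of 0.38 (0.05 to 0.72). Neither passed 1.5-fold. The venous ratio was 0.20 (-0.15 to 0.56) between nuclei matched on UMIs and -0.40 (-0.94 to 0.13) with at least 1000 genes required. Most of the 182 METH and 134 saline UMIs of the venous list were of Il1r1, whose ratio was 0.61. Nr2f2, the other venous gene measured, stood at -0.06. In mural nuclei the venous list had a ratio of 0.39 (-0.16 to 0.96). In this design, a shift in which vessels were sampled and a change of level within vessels cannot be told apart.

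METH was next compared with saline over all endothelial nuclei. Of 2227 genes measured, 11 were higher (0.494%) and 20 lower (0.898%) in METH nuclei, 52.8% of all ratios were above 0 and the median log2 ratio was 0.03. The genes higher in METH included Ndrg1, Vwf, Errfi1, Adamts9, Alas1, Nav1 and Insyn2a. Of the 20 lower genes, 17 had a lower level in endothelial nuclei than in the other barcodes. These counts depend on the filters: without the nucleus highest for each gene they were 5 higher and 12 lower, and in nuclei thinned to 800 UMIs 5 higher and 2 lower.

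Ndrg1, a stress and hypoxia responsive gene, had 117 UMIs in 53 METH nuclei and 46 UMIs in 33 saline nuclei. Its level was 802 CPM in METH (663 to 961) and 328 CPM in saline (240 to 438), and the log2 ratio of 1.29 (0.78 to 1.81) passed the rule under 9 of 10 alternatives. It was 941 CPM in METH and 512 CPM in saline among Vwf-positive nuclei, and 568 CPM in METH and 224 CPM in saline among Vwf-negative nuclei, with log2 ratios of 0.88 (0.23 to 1.57) and 1.34 (0.49 to 2.23). Both intervals lay above 0 without passing the rule, so the difference was present on either side of the Vwf split. Vwf-positive over Vwf-negative, the common log2 ratio of Ndrg1 was 0.89 (0.38 to 1.41), also short of the rule. Mural nuclei held 1 Ndrg1 UMI in METH and 0 in saline. Oligodendrocytes also express it, and a UMI was found in 12.8% of METH and 14.0% of saline barcodes with a Mog UMI.

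Vwf stood at 959 CPM in METH (807 to 1132) and 457 CPM in saline (352 to 584), with a log2 ratio of 1.07 (0.63 to 1.52). The ratio ranged from 0.91 to 1.20 over 10 alternatives and missed the rule under 5 of them, among them nuclei matched on UMIs. Vwf was a gate marker and the gene the nuclei were split by, so its ratio is given as a description.

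Errfi1, a feedback inhibitor of epidermal growth factor receptors that glucocorticoids induce, had 27 UMIs in 16 METH nuclei and 4 UMIs in 4 saline nuclei, a log2 ratio of 2.70 (1.17 to 4.67). In mural nuclei it had 14 UMIs in METH and 3 UMIs in saline. Adamts9, a secreted protease that cleaves matrix proteoglycans, had the same counts of 27 UMIs in METH and 4 UMIs in saline, in 14 METH and 4 saline nuclei. In Vwf-positive nuclei Adamts9 had 21 UMIs in METH and 1 UMI in saline, and in Vwf-negative nuclei 6 UMIs in METH and 3 UMIs in saline. Alas1, the first enzyme of haem synthesis outside red cells, had 34 UMIs in 14 METH nuclei and 6 UMIs in 6 saline nuclei, a log2 ratio of 2.44 (1.17 to 3.99). These 3 genes were found in a small share of nuclei, and 1 METH nucleus held 35.3% of the Alas1 UMIs. Each of them passed the rule, without its UMI minimum, under all but 1 of the alternatives that gave it a finite ratio. For Errfi1 and Adamts9 the exception was thinning to 800 UMIs.

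Nav1, a microtubule-binding neuron navigator, had 82 UMIs in 47 METH nuclei and 31 UMIs in 26 saline nuclei, a log2 ratio of 1.34 (0.73 to 1.99). Insyn2a, named for inhibitory synapses, had 47 UMIs in 33 METH nuclei and 15 UMIs in 12 saline nuclei, a ratio of 1.59 (0.72 to 2.53) that missed the rule under 5 of 10 alternatives. Ptgds had 63 UMIs in 15 METH nuclei and 23 UMIs in 17 saline nuclei, a ratio of 1.39 (0.69 to 2.15); 1 METH nucleus held 38.1% of its UMIs. Hba-a1 had 76 UMIs in 9 METH nuclei and 23 UMIs in 12 saline nuclei, and 1 METH nucleus held 80.3% of its UMIs. Without its highest nucleus the Ptgds ratio was 1.14 (0.28 to 2.05) and missed the rule. Nav1 was spread over 42.0% of METH and 22.2% of saline nuclei. Igsf11, an adhesion molecule, with 26 METH and 6 saline UMIs, and Ttll5, a tubulin-modifying enzyme, with 24 METH and 6 saline UMIs, were also higher, although their endothelial levels lay below those of the other barcodes; each missed the rule under 6 of 10 alternatives.

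Eln, Cck and Ramp2 were the 3 lower genes whose endothelial level was at least that of the other barcodes. Eln, the elastin of larger vessels, had 34 UMIs in 10 METH nuclei and 83 UMIs in 14 saline nuclei, a log2 ratio of -1.35 (-1.97 to -0.75), and 1 saline nucleus held 41.0% of its UMIs. Without the highest nucleus Eln did not pass the rule. Ramp2, the adrenomedullin co-receptor of endothelium, had 11 UMIs in 10 METH nuclei and 33 UMIs in 27 saline nuclei, a log2 ratio of -1.64 (-2.78 to -0.62) that missed the rule under 4 of 10 alternatives. Among Vwf-negative nuclei Ramp2 had 2 UMIs in METH and 23 UMIs in saline, and among Vwf-positive nuclei 9 UMIs in METH and 10 UMIs in saline. Cck encodes a neuropeptide of cortical neurons and had 7 UMIs in METH and 26 UMIs in saline nuclei, a log2 ratio of -1.95 (-3.40 to -0.71) that missed the rule under 5 of 10 alternatives.

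The other 17 lower genes had a lower level in endothelial nuclei than in the other barcodes. Khdrbs2, a neuronal splicing regulator, had 6 UMIs in METH and 40 UMIs in saline nuclei, a log2 ratio of -2.80 (-4.33 to -1.55). Lrrc4c, a netrin-G ligand of synapses, had 18 UMIs in METH and 67 UMIs in saline nuclei, and Il1rapl1, a synaptic adhesion protein, 51 UMIs in METH and 130 UMIs in saline nuclei. Cntn5, a contactin, had 7 UMIs in METH and 30 UMIs in saline nuclei. The calls of Cntn5 and Il1rapl1 were lost under 5 of 10 alternatives each, that of Lrrc4c under 3 and that of Khdrbs2 under 1. With no upper limit of UMIs, which added 2 METH nuclei and 1 saline nucleus, all 4 were lost, and the log2 ratios were 0.030 for Cntn5, -0.05 for Il1rapl1, -0.65 for Lrrc4c and -1.22 for Khdrbs2. Together the 17 genes held 3289 CPM in METH and 8575 CPM in saline endothelial nuclei, 6698 CPM in METH and 9633 CPM in saline mural nuclei, and 29669 CPM in METH and 31920 CPM in saline other barcodes. The 17 genes were picked as lower in these endothelial nuclei, so their endothelial sums follow from that choice. The pan-neuronal list given above, which shares Snap25 with them, also had negative log2 ratios (-0.93 in endothelial and -0.91 in mural nuclei). Its other measured genes, Syt1 and Rbfox1, stood at -0.72 and -0.97 in endothelial nuclei. The part of neuronal RNA in these differences was not tested. In mural nuclei 3 of the 20 lower genes had a ratio above 0, Grm7 at 0.41 (-0.11 to 0.94), Khdrbs2 at 0.18 (-1.15 to 1.59) and Frmd6, a FERM-domain protein, whose interval alone lay wholly above 0: 8 UMIs in METH and 32 UMIs in saline endothelial nuclei (log2 ratio -2.06, -3.39 to -0.91), against 63 UMIs in METH and 24 UMIs in saline mural nuclei (1.05, 0.35 to 1.79).

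**Figure D4:**
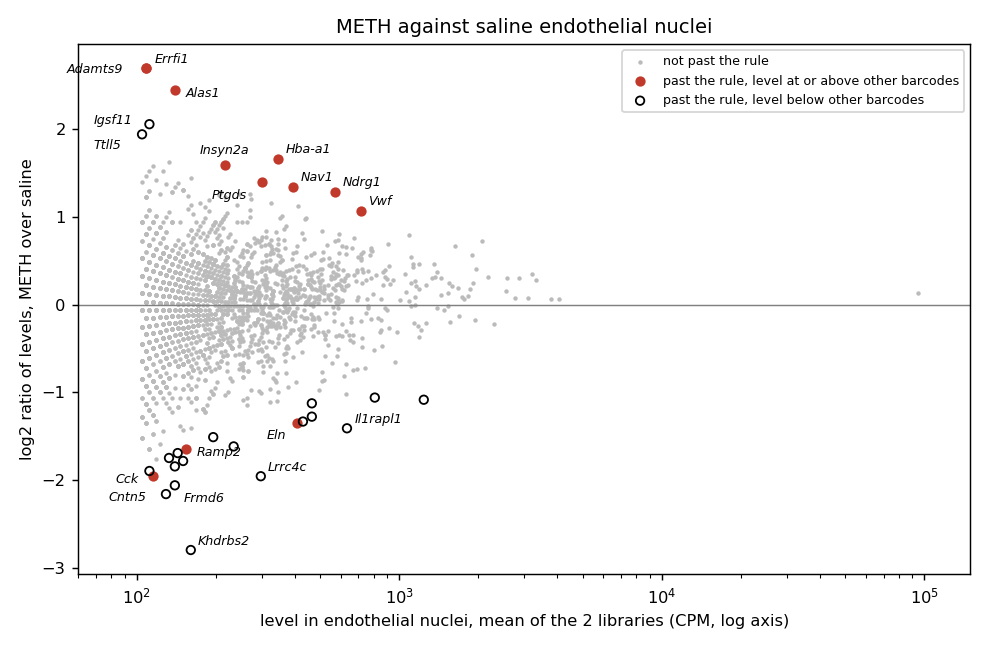
Log2 ratio of levels, METH over saline (vertical), against the mean level in endothelial nuclei (horizontal, CPM, log axis) for the 2227 measured genes. Filled red points passed the 1.5-fold rule with a level at least that of other barcodes, open points passed it with a lower level, and grey points did not pass; Ndrg1 (1.29) and Vwf (1.07) have the highest levels among the higher genes.

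No measured gene of barrier transport, junctions or caveolae passed the rule, where 0.494% of all genes were higher and 0.898% lower. At shares this small, lists of this size would commonly hold no call, so the absence of calls says little about the barrier. Of 18 barrier transporters measured, 11 ratios were above 0 and the median was 0.11. Over all genes, 52.8% of ratios were above 0 and the median was 0.03, values that also apply to the lists below. Slc19a3 had the highest ratio of the barrier transporters, 0.94. Slc2a1, which carries glucose into the brain, had 376 UMIs in 97 METH nuclei and 218 UMIs in 85 saline nuclei, a log2 ratio of 0.73 (0.48 to 0.97) whose lower bound fell short of 1.5-fold. Abcc4, a multidrug efflux pump, had 200 UMIs in METH and 111 UMIs in saline nuclei, a ratio of 0.79 (0.45 to 1.14). Slc39a10, a zinc importer, had 54 UMIs in METH and 94 UMIs in saline nuclei, a ratio of -0.86 (-1.37 to -0.36). Abcg2, another efflux pump, and Slco1a4 had ratios of -0.27 (-0.63 to 0.09) and -0.17 (-0.42 to 0.07). Of 12 junction genes 8 ratios were above 0 with a median of 0.11; Cldn5 stood at 0.34 (-0.05 to 0.73), Ocln at 0.19 (-0.36 to 0.75) and Tjp1 at 0.14 (-0.35 to 0.62). Of 6 genes of caveolae and transcytosis 5 were above 0, Cavin2 highest at 0.90 (0.07 to 1.78). Pacsin2 was lowest at -0.61, and Plvap had no UMI.

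Among growth signals, all 5 measured members of the VEGF and angiopoietin list had ratios above 0, with a median of 0.51. Flt1 and Tek of this list were gate markers, so the count and their ratios are descriptions of the chosen nuclei. Tek stood at 0.60 (0.19 to 1.02), Tie1 at 0.76 (-0.14 to 1.71), Nrp1 at 0.51 (-0.26 to 1.30) and Ptprb at 0.43 (0.10 to 0.76), whereas Flt1, with the most UMIs, stood at 0.07 (-0.11 to 0.24). In Vwf-positive nuclei Tek had 81 UMIs in METH and 16 UMIs in saline, with a log2 ratio of 1.49 (0.71 to 2.36), and in Vwf-negative nuclei 47 UMIs in METH and 65 UMIs in saline, a ratio of 0.24 (-0.33 to 0.81); the difference between these was not tested, and the gate asked for more markers besides Vwf in Vwf-negative nuclei. Of the WNT list, which maintains the barrier, 4 of 10 ratios were above 0 with a median of -0.06. Lef1, a nuclear effector of WNT, stood at 0.56 (0.31 to 0.82) and Tcf7l1, another, at 0.98 (0.36 to 1.63). In the other direction, Reck stood at -0.87, Lrp6 at -0.50 and Sox17 at -0.46, the lowest of the 6 WNT ratios below 0. Of the BMP and TGF-beta list 4 of 9 were above 0 with a median of -0.06, with Id1, a target of BMP, at -0.59 (-1.05 to -0.13). Smad7 also stood at -0.59, and Smad6 was highest at 0.58. Of the arterial list only Efnb2, at -1.64 (-3.01 to -0.44), and Sox17, at -0.46 (-0.94 to 0.02), could be measured.

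The glucocorticoid response list had the highest median of the lists with at least 5 measured genes, 0.69, with 8 of 9 ratios above 0 and 1, Errfi1, past the rule. Zbtb16, a transcription factor, had 163 UMIs in 76 METH nuclei and 97 UMIs in 68 saline nuclei, a ratio of 0.69 (0.32 to 1.07). Dusp1, a phosphatase, stood at 0.86 (0.25 to 1.48), Ddit4, an inhibitor of mTOR, at 0.87 (0.07 to 1.71) and Klf9 at 0.76 (0.07 to 1.47). Sult1a1 had the only ratio below 0, -0.70. The list as a whole summed to 3515 CPM in METH and 2428 CPM in saline endothelial nuclei, 2200 CPM in METH and 1274 CPM in saline mural nuclei, and 1102 CPM in METH and 999 CPM in saline other barcodes. The log2 ratios of these sums were 0.53 (0.33 to 0.74) in endothelial, 0.79 (0.40 to 1.18) in mural and 0.14 (0.12 to 0.16) in other nuclei, and their differences were not tested. The astrocyte list given above had log2 ratios of 1.43 (0.84 to 2.06) in endothelial and 0.02 (-0.34 to 0.39) in mural nuclei, and its part in the result was not tested. Hypoxia and glycolysis genes had 5 of 7 ratios above 0 with a median of 0.21, and only Ndrg1 passed the rule. Epas1, the HIF2 alpha factor, stood at 0.21 (-0.11 to 0.53), and Aldoa was lowest at -0.72.

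Haemostasis genes other than Vwf had 4 of 5 ratios above 0 with a median of 0.35 and none past the rule. Tfpi, the tissue factor pathway inhibitor, had 52 UMIs in METH and 25 UMIs in saline nuclei, a ratio of 1.00 (0.28 to 1.75). Plat, tissue plasminogen activator, had 35 UMIs in METH and 15 UMIs in saline nuclei, a ratio of 1.16 (0.25 to 2.14). Selp and Angpt2, which like Vwf are stored in Weibel-Palade bodies, had no UMI. Adhesion and inflammation genes had 5 of 6 ratios above 0 with a median of 0.42: Il1r1 stood at 0.61 (0.21 to 1.01), Nfkb1 at 1.09 (0.13 to 2.11) and B2m at -0.70 (-1.34 to -0.07), and Sele had no UMI. Within Vwf-positive nuclei the METH over saline ratio of Il1r1 was 0.36 (-0.14 to 0.87), an interval that includes 0. Basement membrane genes had 7 of 10 ratios above 0, with Lamc1, a laminin chain, at 0.98 (0.42 to 1.55), and immediate early genes 5 of 8, none past the rule. Mitochondrial transcripts had 1 of 8 ratios above 0 with a median of -0.37. A list of genes with names in Rps or Rpl had 8 of 19 above 0 with a median of -0.34. Besides ribosomal protein genes it took in kinases of ribosomal protein S6, such as Rps6ka2 (-0.53) and Rps6kl1 (0.63), so its median does not describe ribosomal proteins alone.

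**Figure D5:**
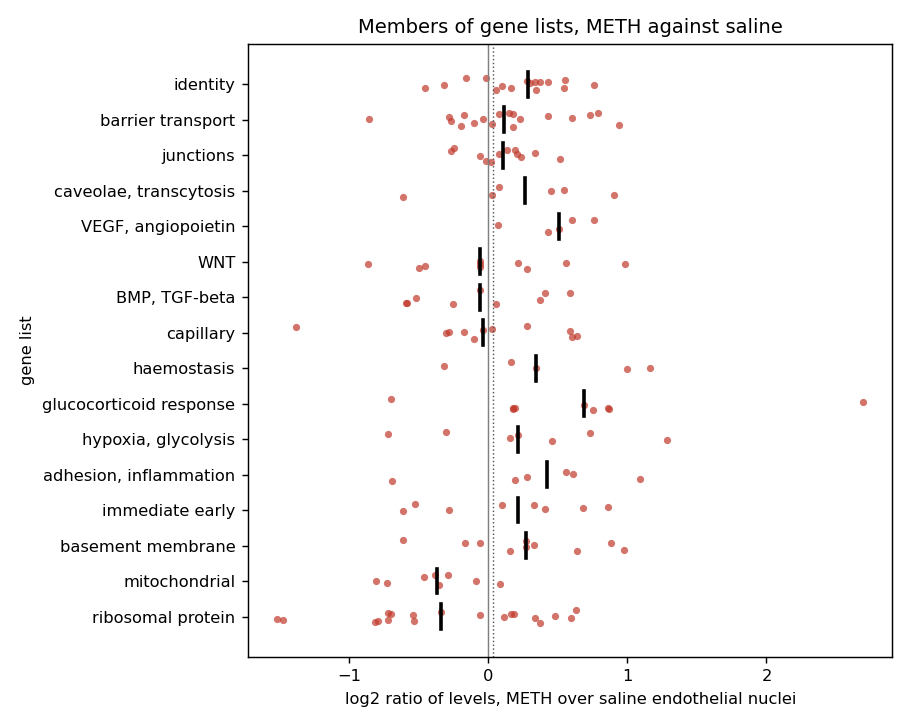
Log2 ratio of levels, METH over saline endothelial nuclei (horizontal), for each measured member of 16 gene lists (vertical); points are genes, thick bars the list medians, the solid line is 0 and the dotted line the median of all genes (0.03). The glucocorticoid response list has the highest median (0.69). The mitochondrial median is -0.37, and that of the list labelled ribosomal protein, which also holds kinases of ribosomal protein S6, is -0.34.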

How the data were processed

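Single-nucleus libraries (Chromium 3' v3.1 chemistry, Illumina NovaSeq, per the labels' protocols) of orbitofrontal cortex were deposited as raw UMI counts of each gene in each barcode; per the file headers, Cell Ranger 7.0.0 produced them. The build in the submitters' processing notes is hg38, which the rat Ensembl identifiers do not match; the sources used here name no rat build. Symbols came from the deposited gene tables, which held 336 of the 353 genes on 31 lists. The nuclei, the lists and the comparisons were chosen with earlier results of these data known.

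From these counts, UMIs of each set of nuclei were added up per library and scaled by the total (CPM, exact Poisson intervals); no deposited value is normalized. Ratios between libraries have exact conditional binomial intervals, ratios between Vwf-positive and Vwf-negative nuclei the same stratified by library, and shares Clopper-Pearson intervals, all at 95%. They cover counting error only. A gene was measured with at least 30 UMIs and called past 1.5-fold as stated in the text. A library held 44969322 UMIs in METH and 42221257 UMIs in saline. Doublets were called with Scrublet in scanpy 1.11.5 (2 METH and 2 saline members, kept in the main values). The interval and call rules were tested on simulated Poisson counts. The simulated counts held no variation between nuclei, so the test does not cover genes whose UMIs lie largely in 1 nucleus. Alternatives varied the gate, depth, matching, thinning, UMI minimum, doublets and scaling (edgeR 4.0.16 TMM factors on the counts). Gate markers and called genes were named by rule, the latter up to 10 per direction by the bound nearest to 0. Where the level lay below other barcodes, up to 5 were named. Members of lists were named for a large ratio or for their role, without a strict rule, and not every member with a large ratio is named. Mitochondrial, ribosomal protein, haemoglobin and clone-named genes were left out of the rule for called genes. Hba-a1, Ddc, Atp13a5 and Slc6a20 are named outside it, after their values were seen. Promoters are from RefSeq on GRCr8. Software was Python 3.11.15, scipy 1.17.1 and R 4.3.3.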

Additional observations from a re-analysis of the deposited data

Results flagged for a closer look

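Frmd6 moved in opposite directions in the endothelial and mural nuclei of the same libraries. Its log2 ratio, METH over saline, was -2.06 (-3.39 to -0.91) in endothelial nuclei, from 8 METH and 32 saline UMIs, and 1.05 (0.35 to 1.79) in mural nuclei, from 63 METH and 24 saline UMIs. With 1 library per group the difference between the ratios was not tested. The endothelial call was lost with at least 3 markers, with no upper limit of UMIs and with at least 1000 genes, its ratio staying between -2.39 and -0.90 over 10 alternatives.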

How the results depend on the processing

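No paired analysis was possible because each group has 1 library and the groups share fewer than 2 replicate numbers. Counts of genes past the rule moved by over 1.5 times as follows. For METH over saline, where 11 genes were higher and 20 lower, the gate with at least 3 markers gave 7 lower, no upper limit of UMIs gave 24 higher and 9 lower, and at least 1000 genes gave 10 lower. Leaving out nuclei led by another class gave 7 higher and 9 lower, matching nuclei on UMIs 6 and 8, thinning to 800 UMIs 5 and 2, and leaving out the highest nucleus of each gene 5 and 12. A minimum of 10 UMIs gave 23 higher and 45 lower, and of 100 UMIs 3 and 7. For Vwf-positive over Vwf-negative nuclei, where 9 genes were higher and 4 lower, no upper limit of UMIs gave 17 higher and 90 lower, although it adds only 2 METH nuclei and 1 saline nucleus; at least 1000 genes gave 8 lower, at least 2 Vwf UMIs against none 7 lower, matching 2 lower, a minimum of 10 UMIs 11 lower, and a minimum of 100 UMIs 2 higher and 0 lower. The causes were not tested, except that a UMI minimum changes how many genes are measured (5737 at 10 UMIs and 416 at 100 UMIs for METH over saline). With at least 1000 genes the log2 ratio of the endothelial share was 0.82 and that of the Vwf-positive share 0.13, from 24 METH and 17 saline nuclei. Under that setting Ptgds reversed to -0.48 and the summed venous and adhesion lists to -0.40 and -0.084, and with no upper limit of UMIs Cntn5 reversed to 0.030. Of the 31 genes called in METH over saline, 30 were also called with TMM scaling, 13 with at least 3 markers, 9 after matching and 6 after thinning. Over the named genes, 204 of 284 calls were kept, 78 lost and 2 reversed, leaving out 3 settings that cannot change a gene's ratio (the limit on mitochondrial UMIs, which removed no nucleus, and both UMI minimums). For these counts a named gene needed a finite ratio under the alternative but not 30 UMIs. A count of about 30 UMIs can pass the rule only with a large ratio, so smaller differences in sparse genes were not detectable at this depth.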
